A study of Rattus norvegicus with 16 samples.

Results

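Dorsal root ganglia (DRGs) of rats taken 1 day after tumor cell implantation (TCI) were compared with DRGs of sham rats. This comparison uses 7 of the 16 samples of the series, 3 TCI day 1 samples (replicates 1, 3 and 4) and 4 sham samples (replicates 1 to 4), chosen by their labels and not by any measured value. Replicate 2 of day 1 has the same label but was left out by the study, so its values are shown apart. The animals were adult female Sprague-Dawley rats. TCI rats received rat mammary gland carcinoma cells of the Walker-256 line in the marrow space of the left tibia. For the sham rats the labels name an injection of PBS, whereas the methods of the study name boiled tumor cells. The sources used here do not settle which was given. Lumbar ganglia L3 to L5 of the operated side of 1 rat were pooled as 1 sample, so the replicates are separate animals. The sham samples are labelled as day 14 after surgery, so tumor cells and days since surgery cannot be told apart between these 2 groups. The time of day of collection is not given in the sources used here. TCI samples of day 7 (replicates 1, 2 and 4) and day 14 (replicates 1 to 4) enter the filter on low values. They also enter the shared estimate of the spread and the values set beside day 1. Day 7 replicate 3 was left out by the study and enters only the alternative with all 16 samples.

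A DRG holds the cell bodies of sensory neurons, each wrapped by satellite glia, together with myelinating Schwann cells around the axons, fibroblasts, vessels and resident macrophages. Type I interferons bind a receptor that nearly all cells carry and, through STAT and IRF factors, switch on a shared set of antiviral genes. Clock genes cycle over the day in most tissues, the chaperones of the endoplasmic reticulum follow the load of unfolded protein, and ribosomal protein genes are regulated together with growth. In these bulk samples, fewer cells of a type and less RNA per cell cannot be told apart.

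The deposited values are FPKM, fragments counted on a gene per kilobase of its length and relative to the size of the library, for 21021 genes. A gene was tested when it reached 1 FPKM in at least 3 of the 14 samples fitted, which left 14023 genes. Differences are on the log2(FPKM + 1) scale and are day 1 minus sham, with 95% intervals from limma, a linear model with moderated variances over all 4 groups. They understate the change of genes with low values. The number of genes at 1 FPKM or above was 13150 to 13239 in sham, 13192 to 13223 on day 1 and 13293 in replicate 2. Correlations over genes between day 1 and sham samples were 0.988 to 0.992, against a lowest value of 0.990 within sham. The markers of sensory neurons were present in all 7 samples, among them the tubulin Tubb3 at 1958 to 2224 FPKM. Sham 4 stood apart by skeletal muscle genes, with a mean log2(FPKM + 1) of 3.79 over the muscle markers against 1.05 to 1.09 in the other 6 samples. It was also the outermost of the 7 samples for other lists, among them nerve injury, myelinating Schwann cell and unfolded protein response genes.

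No gene differed at an adjusted p of at most 0.05 by limma with Benjamini-Hochberg adjustment (0 of 14023, 0%), and the smallest adjusted p was 0.736. At an unadjusted p under 0.05 there were 408 genes higher on day 1 (2.91%) and 326 lower (2.32%). All 3 day 1 samples lay above all 4 sham samples for 865 genes (6.17%) and below them for 803 (5.73%). These 4 shares are the background for every list that follows. The median gene had a 95% interval reaching 0.187 to either side, and for 12128 genes (86.5%) the interval lay within 0.5 of 0. Since no gene passed the adjusted threshold, "higher" and "lower" describe the values measured, and the median difference over all tested genes was 0.0009.

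The gene lists differed in the share of members whose day 1 and sham samples did not overlap. That share was farthest above the background on the higher side for type I interferon-stimulated, myelinating Schwann cell, fibroblast and cytosolic ribosomal protein genes. Collagen and matrix (21.7%), clock (19.0%) and translation factor genes (17.2%) also exceeded it. On the lower side it was above the background for the unfolded protein response, heat shock genes and ion channels, whose median differences were small, from -0.10 to -0.05. So it was for cAMP signaling genes (14.3%) and skeletal muscle markers (16.7%). For satellite glia, sensory neuron, glucocorticoid, acute inflammation and cell cycle genes the share was 0% to 8.33% on either side.

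**Figure D1:**
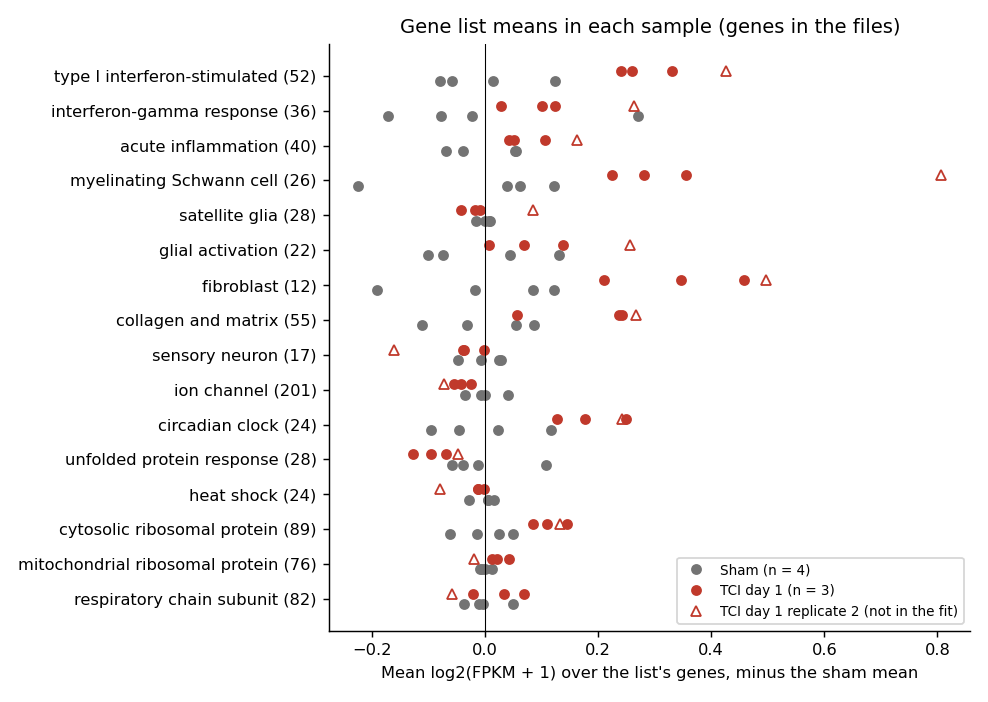
Mean log2(FPKM + 1) over each list in each sample, minus the mean of the 4 sham samples; grey points are sham, filled red points TCI day 1 and open triangles day 1 replicate 2, and numbers in brackets count the genes of a list in the files. The 3 day 1 samples sit above all sham samples for the type I interferon, myelinating Schwann cell, fibroblast, clock and cytosolic ribosomal lists, and replicate 2 lies farthest out for the myelin list, at 7.19 against a sham mean of 6.38.

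Promoters are printed here for a few members of these lists that hold a match, and not for all genes that differed. The interferon-stimulated response element, bound by STAT and IRF factors, was searched as GAAA, any 2 bases and GAAA again. The E-box, bound by CLOCK and BMAL1, was searched as CACGTG, and the endoplasmic reticulum stress element as CCAAT and CCACG with 9 bases between. Both strands were searched in RefSeq promoters of build GRCr8, from 250 bases before to 50 after the annotated start. The E-box reads the same on both strands, and a stress element followed by TG would also hold an E-box. The response element stood in 20 of the 35 type I interferon-stimulated promoters found in the table (57.1%), against 1034 of all 27457 promoters (3.77%). Among type I members with no overlap between day 1 and sham it stood in 8 of 13, and among the overlapping members in 12 of 22. It also stood in 14 of 32 promoters (43.8%) of genes that respond mainly to interferon-gamma. The E-box stood in 4 of 18 clock promoters (Ciart, Bhlhe40, Bhlhe41 and Tef), against 1826 of all promoters (6.65%). Dbp and Nr1d1 were not among the 4. The stress element stood in 7 of 23 promoters of the unfolded protein response, against 21 of all promoters (0.0765%). A match describes the letters alone and is no evidence of binding. The 250 bases before the start are printed 5′ to 3′ on the strand of the gene, with the match in capitals.
Ifit3, chr1:241527076-241527325, plus strand: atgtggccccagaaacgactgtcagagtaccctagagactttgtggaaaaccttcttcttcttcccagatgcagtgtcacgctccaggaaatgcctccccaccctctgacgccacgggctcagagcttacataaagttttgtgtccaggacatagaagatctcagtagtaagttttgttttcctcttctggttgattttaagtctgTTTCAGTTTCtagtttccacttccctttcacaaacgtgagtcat
Isg20, chr1:142239809-142240058, plus strand: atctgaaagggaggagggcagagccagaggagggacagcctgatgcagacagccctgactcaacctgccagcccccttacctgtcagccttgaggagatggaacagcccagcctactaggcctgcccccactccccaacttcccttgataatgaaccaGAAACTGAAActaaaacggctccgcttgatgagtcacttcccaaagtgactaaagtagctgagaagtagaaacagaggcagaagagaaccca
Irf7, chr1:205800024-205800273, minus strand: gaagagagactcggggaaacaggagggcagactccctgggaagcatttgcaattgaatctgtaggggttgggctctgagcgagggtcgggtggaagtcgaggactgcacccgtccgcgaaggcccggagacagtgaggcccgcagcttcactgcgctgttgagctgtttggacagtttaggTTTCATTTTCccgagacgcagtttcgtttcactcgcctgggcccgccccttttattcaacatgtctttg
Ciart, chr2:186112247-186112496, minus strand: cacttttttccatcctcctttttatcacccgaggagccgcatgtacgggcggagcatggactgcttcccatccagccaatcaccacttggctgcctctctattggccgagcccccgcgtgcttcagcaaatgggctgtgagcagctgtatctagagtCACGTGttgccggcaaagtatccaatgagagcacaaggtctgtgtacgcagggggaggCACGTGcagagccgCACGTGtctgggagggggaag
Hspa5, chr3:38452766-38453015, plus strand: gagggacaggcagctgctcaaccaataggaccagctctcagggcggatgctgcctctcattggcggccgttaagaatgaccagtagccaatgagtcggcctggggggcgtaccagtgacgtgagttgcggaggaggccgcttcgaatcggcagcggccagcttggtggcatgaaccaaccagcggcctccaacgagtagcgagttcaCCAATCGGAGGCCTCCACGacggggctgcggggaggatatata

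Type I interferon-stimulated genes lay higher on day 1 as a list. Of 52 genes in the files 50 were tested, 45 were higher on day 1 and 7 had an unadjusted p under 0.05, all higher (1 without day 1 replicate 4, and 2 without Sham 1 or without Sham 4). For 21 members (42.0%, background 6.17%) day 1 did not overlap sham, and for 0 members did it lie below. The median difference was 0.22. The list mean was 2.43, 2.41, 2.61 and 2.5 in Sham 1 to 4 and 2.75, 2.73 and 2.82 in day 1 replicates 1, 3 and 4. Every day 1 sample therefore lay above the highest sham sample, Sham 3. In a fit of these 7 samples alone, 25 of 45 tested members were higher at an unadjusted p under 0.05. So were 932 of the 13335 genes tested in that fit, and 0 genes passed the adjustment.

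Ifit3, an interferon-induced tetratricopeptide repeat protein, had the largest difference among the members of the list. Its FPKM was 0.49, 0.48, 0.59 and 0.28 in sham and 2.34, 1.84 and 3.35 on day 1, with no overlap (difference 1.25, 95% interval 0.19 to 2.3, limma adjusted p = 0.939). Its relative Ifit2 stood at 2.03, 2.42, 2.63 and 2.13 FPKM in sham and at 3.96, 4.37 and 6.30 on day 1. Both genes were low in every sham rat and higher in every day 1 rat, and both are close to the floor where log2(FPKM + 1) compresses differences.

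Usp18 encodes a protease that removes ISG15 from proteins and damps the interferon receptor. It measured 1.35, 1.80, 2.19 and 1.28 FPKM in sham and 3.70, 3.69 and 5.20 on day 1. Rtp4, a receptor transporter protein, measured 2.51, 1.79, 2.98 and 1.96 FPKM in sham and 4.83, 4.07 and 5.53 on day 1. The 2 groups did not overlap for either gene, and differences were 0.97 (interval 0.04 to 1.90) and 0.82 (interval 0.06 to 1.58).

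Antiviral effectors followed. Isg20, an exoribonuclease, had the smallest unadjusted p of the list, 0.00741 (limma adjusted p = 0.793). It measured 0.83, 0.91, 0.62 and 0.61 FPKM in sham and 1.63, 1.86 and 1.36 on day 1. Oas1b, of the oligoadenylate synthetase family that activates RNase L, measured 4.56, 4.93, 5.09 and 5.4 FPKM in sham and 6.82, 7.78 and 8.90 on day 1. All day 1 values again exceeded all sham values for both. The related entry Oas1g stood at 1.85, 1.09, 0 and 2 FPKM in sham and 3.84, 2.59 and 3.93 on day 1, and as reads may be split among the near-identical Oas1 genes the single entries are uncertain.

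Irf7 and Isg15 were chosen after their values were seen, since one is the factor that amplifies the interferon response and the other its ubiquitin-like product. Irf7 measured 4.34, 3.64, 5.49 and 4.05 FPKM in sham and 11.5, 7.32 and 8.77 on day 1. Isg15 measured 4.58, 4.17, 5.70 and 4.72 in sham and 7.27, 7.02 and 9.09 on day 1. Neither overlapped, yet the intervals of the difference were -0.31 to 2.13 for Irf7 and -0.49 to 1.70 for Isg15. The interferon genes Ifnb1, Ifna1 and Ifng were listed at 0 in all 7 samples.

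**Figure D2:**
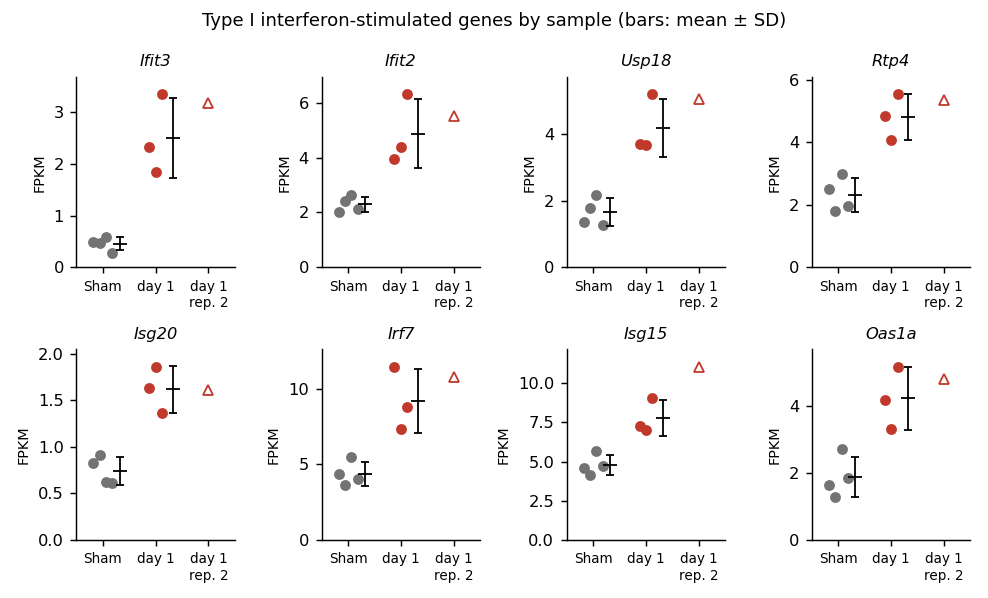
FPKM of 8 type I interferon-stimulated genes in each sample, with grey points for sham, red points for TCI day 1 and a triangle for day 1 replicate 2; bars give the mean and SD of the 4 sham and 3 day 1 samples and each axis starts at 0. In all 8 panels the day 1 points lie above the sham points, for Ifit3 at 1.84 to 3.35 against 0.28 to 0.59. The 8 genes shown are among the 21 of 50 tested members without overlap, so the panels do not stand for the whole list.

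The 3 members with the highest levels overlapped between the groups. Ifi27l2b had a mean of 261 ± 4.26 FPKM in sham and 253 ± 17.4 on day 1 (SD, n = 4 and 3), and Lgals3bp 34.1 ± 4.78 and 34.1 ± 0.641. Ifi27 was at 222, 203, 224 and 230.1 FPKM in sham and 230.3, 296 and 223 on day 1 (difference 0.17, interval -0.11 to 0.46), with replicate 3 alone far above sham. Ifitm3, a membrane protein that blocks virus entry, was at 26.6 to 36.2 FPKM in sham and 40.1 to 42.9 on day 1, with no overlap. Of 35 tested genes that respond mainly to interferon-gamma 24 were higher, with a median of 0.08 (0.01 to 0.17 when single replicates were left out, against 0.18 to 0.26 for the type I list), 3 without overlap (8.57%) and 0 with an unadjusted p under 0.05 in either direction. The chemokine Cxcl10 was among the 3, at 1.64 to 3.40 FPKM in sham and 3.70 to 5.66 on day 1. The 15 macrophage markers had a list mean of 1.98 to 2.53 in sham and 2.23 to 2.39 on day 1, with 8 members higher and 0 at an unadjusted p under 0.05, so the groups overlapped. Their part in the interferon values was not tested.

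The later days share the day 1 samples in these comparisons, so their values are only set beside those of day 1. Between day 1 and day 7, 1265 genes were higher on day 7 (9.02%) and 199 lower (1.42%) at a limma adjusted p of at most 0.05, and between day 1 and day 14, 828 were higher (5.9%) and 148 lower (1.06%). For the type I list 22 members were higher on day 7 than on day 1 and 18 on day 14, with medians of 0.94 and 0.87. For the interferon-gamma list these were 33 and 30 members with medians of 2.22 and 2.14. Ifit3 differed by 0.86 between day 7 and day 1 (limma adjusted p = 0.374) and Isg20 by 0.46 (limma adjusted p = 0.179).

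Myelinating Schwann cell genes formed the second group. All 26 genes in the files were tested, and 23 were higher on day 1, of which 13 had an unadjusted p under 0.05, all higher. Day 1 and sham did not overlap for 15 members (57.7%, background 6.17%), with a median difference of 0.33. The list mean was 6.42, 6.50, 6.44 and 6.16 in Sham 1 to 4 and 6.66, 6.61 and 6.74 on day 1. Sham 4 was the lowest of these 7, and without it the median was 0.23 and 7 members had an unadjusted p under 0.05. The 3 exceptions were Mog, Nfasc and Gjc3.

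Mbp, which holds the inner faces of the myelin membrane together, measured 1495, 1460, 1388 and 1113 in sham and 2025, 1756 and 1949 on day 1 (difference 0.49, interval 0.19 to 0.80, limma adjusted p = 0.793). Sham 4 was the lowest of the sham and day 1 samples, and the 3 other sham rats also lay below every day 1 rat.

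Cnp, a phosphodiesterase of myelin, had the smallest unadjusted p of the list. Its FPKM was 108, 120, 104 and 105 in sham and 128, 137 and 145 on day 1, which do not overlap, and here Sham 4 was like the other sham samples. Pllp and Bcas1, membrane and cytoplasmic proteins of myelin, differed by 0.42 and 0.43. Pmp22, whose dose sets peripheral myelin stability, was at 2008 to 2657 FPKM in sham and 2831 to 3186 on day 1. Egr2, the transcription factor that drives myelination, was at 6.69 to 9.61 FPKM in sham and 9.39 to 13.6 on day 1, so that day 1 replicate 1 lay within the sham range. The small heat shock protein Cryab, abundant in myelinating Schwann cells, was at 148 to 183 FPKM in sham and 202 to 238 on day 1.

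**Figure D3:**
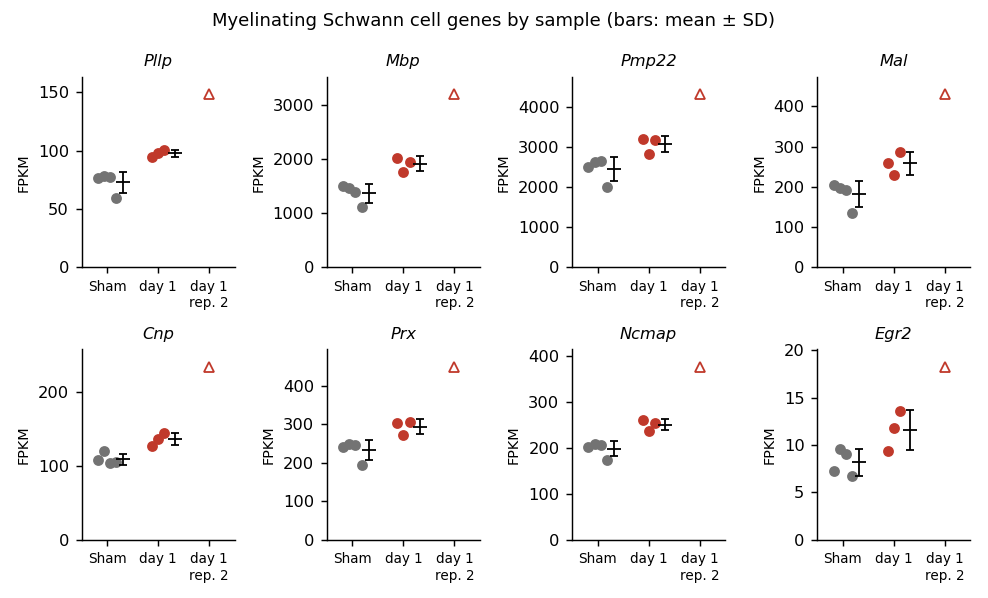
FPKM of 8 genes of myelinating Schwann cells in each sample, with grey points for sham, red points for TCI day 1 and a triangle for day 1 replicate 2; bars give the mean and SD of the 4 sham and 3 day 1 samples and each axis starts at 0. Day 1 lies above sham except for Egr2, and the triangle lies above every other sample, for Mbp at 3188 FPKM. The 8 genes were picked from 26 tested members, of which 15 did not overlap.

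Replicate 2 of day 1 lay on the same side of sham for these lists, farther out for myelin. It lay above all 4 sham samples for 3974 of the 14023 genes (28.3%) and below them for 4246 (30.3%). For the myelin list it was above for 25 of 26 members (96.2%), with a list mean of 7.19, and for the type I interferon list for 40 of 50 (80.0%), with a list mean of 2.92. For the sensory neuron markers it lay below all sham samples for 13 of 17 members and above for 0. Mbp was at 3188 FPKM in replicate 2, above the other 7 samples. With replicate 2 in a fit of 4 against 4, the median of the myelin list was 0.47 and that of the interferon list 0.29, and still 0 genes passed the adjusted threshold.

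The other glial lists were flat. Of 28 satellite glia genes 9 were higher and 19 lower, with a median of -0.04 and list means of 5.73 to 5.76 in sham and 5.70 to 5.74 on day 1. The lipid carrier Apoe, the most abundant of them, was at 3359 to 3844 FPKM in sham and 3035 to 3706 on day 1 (interval of the difference -0.25 to 0.13). Kcnj10, the inward rectifier potassium channel of satellite glia, was at 32.1 to 37.5 FPKM in sham and 27.1 to 31.0 on day 1, with no overlap and an interval of -0.69 to 0.16. For Pou3f1, a factor of promyelinating Schwann cells that the list also holds, sham was at 2.54 to 4.14 and day 1 at 4.84 to 7.30 FPKM. Of 19 tested glial activation genes 13 were higher, with a median of 0.07 and 1 unadjusted p under 0.05. That gene was Vim, an intermediate filament gene, at 542, 572, 592 and 576 FPKM in sham and 607, 703 and 658 on day 1. Gfap was at 4.19 to 9.07 FPKM in sham and 6.42 to 8.80 on day 1, which overlap.

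Fibroblast and matrix genes leaned higher. All 11 tested fibroblast markers were higher, 4 without overlap (36.4%), with a median of 0.36 and list means of 3.95 to 4.26 in sham and 4.35 to 4.60 on day 1. Apod, a lipid carrier abundant in fibroblasts of nerve, measured 336, 434, 547 and 351 FPKM in sham and 591, 740 and 907 on day 1. Decorin (Dcn), a collagen-binding proteoglycan, was at 129 to 192 FPKM in sham and 208 to 267 on day 1. Of 46 tested collagen and matrix genes 38 were higher and 10 did not overlap (21.7%), with a median of 0.19. The largest difference among those with a small p was that of Col6a2, a chain of collagen VI, at 19.8 to 25.7 FPKM in sham and 34.0 to 46.4 on day 1 (difference 0.75, interval 0.23 to 1.26, limma adjusted p = 0.793). Of 6 tested red blood cell markers 5 were higher, 4 of them at an unadjusted p under 0.05 (66.7%, background 2.91%) and 0 without overlap. Their median was 0.95, or 0.57 to 1.46 when single replicates were left out. These markers differed within day 1. Hbb, a hemoglobin chain gene, was at 37.5, 23.5, 24.9 and 44.6 FPKM in sham and 37.0, 64.1 and 123.5 on day 1, so replicates 3 and 4 lay above sham and replicate 1 within it. The part of fibroblast or blood content in any other list was not tested.

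Clock genes lay on both sides of sham. Of 21 tested genes 6 were higher at an unadjusted p under 0.05 (Dbp, Nr1d1, Ciart, Tef, Nr1d2 and Hlf) and 2 lower (Cry1 and Arntl). Groups did not overlap for 4 members above sham (19.0%, background 6.17%) and for 1 below (4.76%, background 5.73%). The list median was 0.08. The list holds genes of opposite phase.

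Dbp, a transcription factor driven directly by CLOCK and BMAL1, measured 26.1, 8.47, 12.9 and 6.89 FPKM in Sham 1 to 4 and 34.2, 41.7 and 48.5 on day 1 (difference 1.70, interval 0.96 to 2.43, limma adjusted p = 0.736). Nr1d1, which encodes the repressor REV-ERB alpha, measured 19.1, 8.71, 8.96 and 5.89 in sham and 27.2, 27.3 and 26.1 on day 1 (difference 1.37, interval 0.65 to 2.10). Sham 1 lay between the other 3 sham rats and the day 1 rats for both genes. Replicate 2 of day 1, at 43.6 and 29.0 FPKM, lay with the other day 1 samples.

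Ciart, a repressor of CLOCK and BMAL1, measured 1.86, 0.62, 1.00 and 0.28 FPKM in sham and 2.55, 2.21 and 2.83 on day 1. Cry1, a repressor of the opposite phase, measured 2.70, 3.55, 3.44 and 4.08 in sham and 2.34, 2.49 and 2.5 on day 1. Arntl, the gene of BMAL1 itself, measured 3.20, 5.94, 4.02 and 6.34 in sham and 3.34, 3.28 and 3.10 on day 1. In each case Sham 1 was the sham sample nearest to day 1, and for Arntl it lay within the day 1 range. Without Sham 1, Dbp passed the adjusted threshold (difference 2.05, limma adjusted p = 0.0314), the 1 gene to do so in any alternative. In that fit of 14003 genes, 7 clock genes lay above and 4 below sham without overlap. Because Sham 1 was singled out by these same clock values, leaving it out moves the groups apart, and neither result is support. Over all genes, leaving out single replicates gave 1134 to 1883 above and 1080 to 1960 below, since fewer samples overlap less. Between day 7 and day 1, Dbp differed by -1.38 (limma adjusted p = 0.0285) and Nr1d1 by -1.03 (limma adjusted p = 0.0926). Per1 and Per2 overlapped between day 1 and sham.

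**Figure D4:**
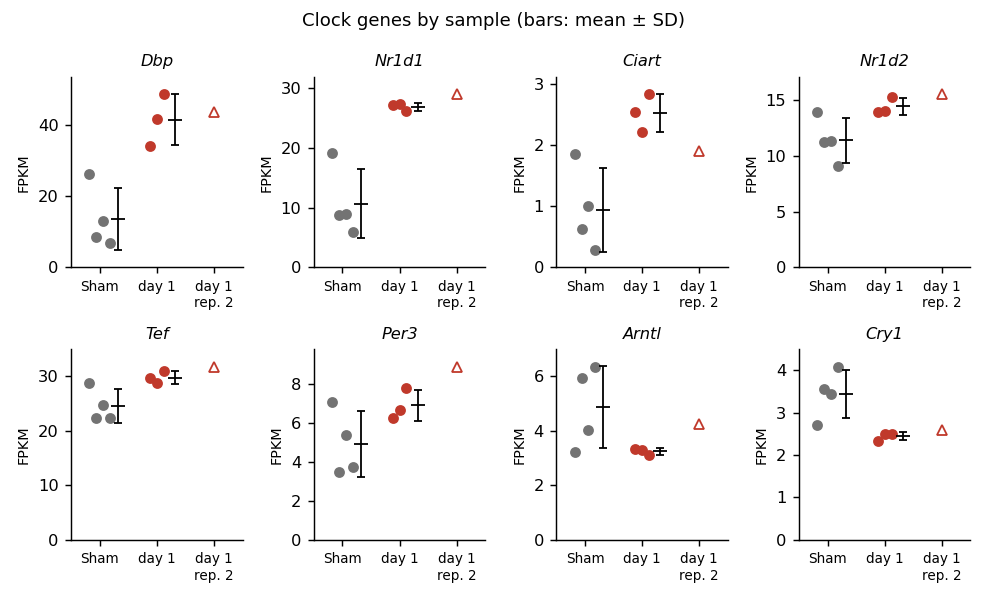
FPKM of 8 clock genes in each sample, with grey points for sham, red points for TCI day 1 and a triangle for day 1 replicate 2; bars give the mean and SD of the 4 sham and 3 day 1 samples and each axis starts at 0. Dbp, Nr1d1 and Ciart lie higher on day 1 and Arntl and Cry1 lower, with the leftmost sham point (Sham 1) nearest to day 1.

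Stress genes leaned lower for chaperones and were near 0 for most other lists. Of 28 genes of the unfolded protein response 25 were lower on day 1, 4 with an unadjusted p under 0.05 and 8 without overlap (28.6%, background 5.73%), and the median was -0.10. Hspa5, the chaperone BiP of the endoplasmic reticulum, measured 122, 136, 134 and 166 FPKM in sham and 113, 111 and 103 on day 1 (difference -0.35, interval -0.54 to -0.16, limma adjusted p = 0.736). The other 3 were the disulfide isomerase Pdia4 at -0.25, the chaperone Hsp90b1 at -0.17 and Hyou1 at -0.12. Sham 4 was the highest of the 7 samples for all 4 genes, and without it the list median was -0.07 with 2 members at an unadjusted p under 0.05.

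Heat shock genes, mostly chaperones of the cytosol and mitochondria, had a median of -0.05 and list means of 6.53 to 6.54 on day 1, inside the sham range of 6.52 to 6.56, with 7 of 24 members below sham without overlap (29.2%) and 2 above. The cochaperone Dnajb1 was at 33.0 to 39.3 FPKM in sham and 29.8 to 32.3 on day 1. Glucocorticoid response genes had a median of -0.04 over 36 tested members, and Fkbp5, a sensitive target of the hormone, had a mean of 8.49 FPKM in sham and 7.39 on day 1. Acute inflammation genes had a median of 0.07 over 26 tested members, 0 of them with an unadjusted p under 0.05. Of 37 immediate early genes 4 had an unadjusted p under 0.05, all higher (Egr2, Cyr61, Jun and Gadd45g). Jun was at 33.0, 37.2, 38.8 and 41.1 FPKM in sham and 38.9, 43.7 and 44.8 on day 1, so the groups overlapped. Fos was at 1.81 to 3.74 and 2.17 to 2.35 FPKM. The nerve injury factor Atf3 measured 3.82, 6.96, 5.85 and 12.2 FPKM in sham and 7.53, 15.1 and 6.62 on day 1, with overlap, and 2 of 30 injury genes (Gadd45a and Jun) had an unadjusted p under 0.05. The injury list mean was 3.565 in Sham 4, 3.132 to 3.185 in the other sham samples and 3.158 to 3.284 on day 1. Day 1 minus sham was -0.039 for this mean and 0.062 without Sham 4.

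Cytosolic ribosomal protein genes differed by little, and nearly all in 1 direction. Of 84 tested genes 79 were higher, 12 had an unadjusted p under 0.05 and 46 did not overlap (54.8%, background 6.17%), with a median of 0.10. Rpsa, of the small subunit, measured 268, 278, 265 and 288 FPKM in sham and 303, 309 and 309 on day 1 (difference 0.16, interval 0.03 to 0.29). Rpl36, of the large subunit, measured 178, 169, 169 and 172 in sham and 192, 204 and 199 on day 1. Both genes were higher in each day 1 rat than in any sham rat. After quantile normalization 19 members did not overlap and the median was 0.06, so the count depends on how samples are scaled. Mitochondrial ribosomal genes had a median of 0.03, respiratory chain subunits 0.04, proteasome subunits 0.02 and translation factors 0.01. Between day 1 and day 7, 64 ribosomal genes were higher on day 7, with a median of 0.35.

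**Figure D5:**
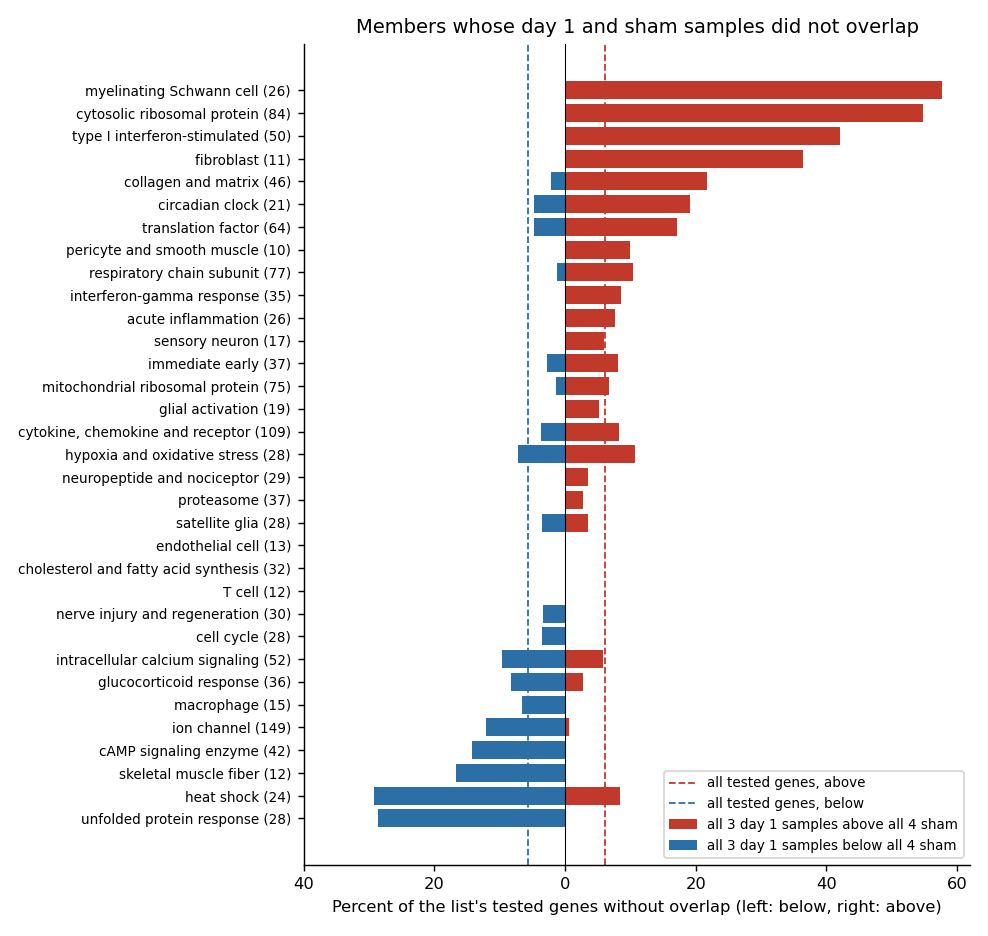
Percent of each list's tested genes (number in brackets, lists of 10 or more) for which all 3 day 1 samples lay above (red, right) or below (blue, left) all 4 sham samples; dashed lines give the same for all 14023 tested genes, 6.17% above and 5.73% below. The myelinating Schwann cell, cytosolic ribosomal and type I interferon lists reach 57.7%, 54.8% and 42.0% above, and the heat shock and unfolded protein response lists 29.2% and 28.6% below.

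Most neuronal genes differed little in level. The 17 sensory neuron markers had a median of -0.03, and all 17 intervals lay within 0.5 of 0. Among 29 tested neuropeptide and nociceptor genes 22 were lower, with a median of -0.05, and 20 intervals lay within 0.5 of 0. Their differences ranged from -1.76 to 0.25, and 1 lower member, Th, had an unadjusted p under 0.05 (3.45%, background 2.32%). Day 1 minus sham was -0.088 for this list mean and -0.031 without Sham 4. Of 149 tested ion channel genes 103 were lower, 12 had an unadjusted p under 0.05, all lower, and 18 did not overlap below sham (12.1%, background 5.73%), with a median of -0.05. Piezo2, the mechanosensitive channel of touch and proprioception, measured 43.8, 45.8, 44.9 and 45.7 FPKM in sham and 41.1, 39.5 and 37.8 on day 1 (difference -0.19, interval -0.32 to -0.06, limma adjusted p = 0.793). Kcna6, a voltage-gated potassium channel, was at 24.5 to 26.4 FPKM in sham and 22.4 to 23.2 on day 1. Cacnb4, a calcium channel beta subunit, was at 11.4 to 13.6 and 9.94 to 11.2 FPKM. All 3 stood lower in every day 1 rat than in any sham rat. Of the 20 channel genes that the study named, a list chosen on these samples, 5 were tested and 0 had an unadjusted p under 0.05. Of 42 cAMP signaling genes 6 lay below sham without overlap (14.3%), among them the kinase subunit Prkacb at -0.21, and of 109 cytokine and receptor genes 9 lay above (8.26%).

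Outside the lists, the smallest unadjusted p-values belonged to genes of varied roles. Mfge8, which bridges dying cells to phagocytes, measured 18.6, 19.2, 16.3 and 21.3 FPKM in sham and 28.8, 29.0 and 24.3 on day 1 (difference 0.52, interval 0.32 to 0.71, limma adjusted p = 0.736). Mlycd, the malonyl-CoA decarboxylase, measured 12.3, 10.9, 11.96 and 12.9 in sham and 16.7, 15.04 and 17.0 on day 1. Srpx, a secreted sushi-repeat protein, was at 3.76 to 5.22 FPKM in sham and 6.43 to 8.32 on day 1. Replicate 2 was also above all sham samples for these 3 genes, at 23.6, 14.9 and 9.99 FPKM. Lower on day 1 were the GTPase-activating protein Arhgap28 at -0.42, the basement membrane protein Fras1 at -0.36, the receptor Adam22 at -0.17 and the actin-bundling protein Pls1 at -0.26, none overlapping. LOC100911402 was higher by 0.53 and LOC108348061 lower by 0.81, with limma adjusted p = 0.736 for both. Replicate 2 was at 32.4 FPKM for LOC100911402, above the sham range of 21.3 to 25.8. For LOC108348061 it was at 40.5 FPKM, inside the sham range of 28.4 to 47.0 and apart from the other day 1 samples at 15.5 to 22.8.

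Several large differences came from entries whose values jumped between single samples. Of the 10 genes with a difference of at least 1 and no overlap, 6 were higher (Rpl30, Triap1, Dbp, Nr1d1, Ifit3 and Oas1g) and 4 lower (LOC102553010, Serpinb1b, Mylpf and Rfxap). Rpl30 was at 1.5, 4.44, 77.5 and 89.8 FPKM in sham and 94.95, 92.1 and 93.5 on day 1, while LOC100362027, named Rpl30l2 by RefSeq, was at 178, 181, 93.6 and 90.2 and at 99.8, 95.8 and 104. Their summed FPKM was 180, 185, 171 and 180 in sham and 195, 188 and 197 on day 1. The symbol Triap1 is listed for 2 genes, one at 0 in all sham samples and at 0.44, 5.87 and 5.68 FPKM on day 1. The second was at 10.9 and 11.3 FPKM in the same 2 day 1 rats against 16.5 to 19.2 in sham, and the sum of both was 16.5 to 19.2 in sham and 16.8 to 18.6 on day 1, which overlap. LOC102553010 and Serpinb1b were at 4.67 and 3.66 FPKM in day 1 replicate 3, against 260 to 284 and 56.0 to 67.5 in sham. Mylpf, a muscle myosin light chain, was at 78.7 FPKM in Sham 4 and at most 1.82 in the other 6 samples, and of these 7 samples Rfxap was at 0 in day 1 replicate 4 alone. These entries are uncertain.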

How the data were processed

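Total RNA of ganglia of each rat was extracted with Trizol. Per the study's methods, the authors filtered the reads, aligned them with HISAT and Bowtie2 and estimated FPKM per gene with RSEM, and the deposited files hold these FPKM values. The labels list CASAVA 1.4 and Bowtie2. The genome build and annotation are not given in the sources used here. The counts that the study tested are not used here, so FPKM was tested in place of a count model. Genes under 1 FPKM in all but 2 or fewer samples were dropped, a pseudocount of 1 was added and log2 values of 14 samples in 4 groups were fitted in limma 3.58.1 (R 4.3.3) with a variance trend and Benjamini-Hochberg adjustment. All p-values measure the spread between these animals. Tables and figures used Python 3.11.15, pandas 2.3.3, numpy 2.4.6 and matplotlib 3.10.9. The fit was checked on simulated data. The study gives an average number of clean reads over its samples, but read numbers of single samples were not used here. Steps of low values over 36 genes gave relative depths of 0.940 to 1.07. Named genes were those with a difference of at least 1 in size and no overlap (at most 8 each way), the 5 smallest p-values each way, up to 4 members of each list with an unadjusted p under 0.05, and the most abundant members of lists (3 in sham for 11 lists, 2 for marker lists). Genes outside this rule were chosen after their values were seen: Irf7, Isg15, Ifitm3, Usp18, Oas1b, Cxcl10, Kcnj10, Gfap, Atf3, Fos, Fkbp5, Tubb3, Arntl, Nr1d2, Hlf, Per1, Per2, Bhlhe40, Bhlhe41, Nfasc, Gjc3 and LOC100362027. Also outside the rule were Ifnb1, Ifna1 and Ifng in the text and Oas1a, Mal, Prx, Ncmap and Per3 in the figures. The gene lists and members were chosen with earlier results of these data known. Alternatives numbered 18. Some genes of the lists are not reported here by name.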

Additional observations from a re-analysis of the deposited data

Results flagged for a closer look

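Of 86 groups of list means tested, 7 had 1 sample far from the others by Dixon's test, and chance flags about 1 in 20 groups. In sham, Sham 4 was highest for the skeletal muscle markers, at a mean log2(FPKM + 1) of 3.789, and for the nerve injury list, at 3.565. With replicate 2 counted among 4 day 1 samples, replicate 2 was lowest for the heat shock list at 6.466 and highest for the cytokine, chemokine and receptor list at 1.173. In the same set of 4, replicate 1 was highest for the cAMP signaling list at 3.489 and lowest for the collagen and matrix list at 2.943, and replicate 3 was highest for the cell cycle list at 1.433.

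Between day 7 and day 1, 1464 genes differed, and between day 14 and day 1, 976 genes, by limma at an adjusted p of at most 0.05. These are the comparisons already given above with both directions counted together. The sham values cancel in them, so they are no separate test of the difference from sham. Replicate 2 of day 1, outside the 3 day 1 samples compared with sham, had a mean of 7.188 over the myelinating Schwann cell genes, above every sham sample.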

How the results depend on the processing

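With 3 against 4 animals and a pooled spread, a gene at the median interval could be told from 0 before adjustment only at differences above 0.187, and FPKM carry no count depth. Genes at an adjusted p of at most 0.05 numbered 0 to 1 when single replicates were left out, the 1 being Dbp without Sham 1, and 0 under the other alternatives, with smallest adjusted p-values of 0.0314 to 1.0. At an unadjusted p under 0.05, 932 genes were higher and 787 lower with the 7 samples alone, 1161 and 1034 with replicate 2 added to them, and 1181 and 1229 with array weights, and leaving out single replicates gave 257 to 449 higher and 167 to 382 lower. Without overlap, leaving out single replicates gave 1134 to 1883 higher and 1080 to 1960 lower, since fewer samples overlap less. With replicate 2, in all 16 samples or 4 against 4, list medians were -0.0692 for sensory neuron, -0.0281 for satellite glia, 0.466 for myelinating Schwann cell and -0.0741 for heat shock genes. Quantile normalization gave -0.0679 for sensory neuron, -0.0591 for satellite glia and -0.0626 for heat shock genes, array weights -0.0294 for satellite glia, and no filter 0.141 for red blood cell genes. Leaving out single replicates gave -0.0582 to -0.0154 for sensory neuron, -0.0640 to -0.0220 for satellite glia and 0.572 to 1.46 for red blood cell genes. Medians near 0 changed sign under some alternatives for the glucocorticoid, cell cycle, proteasome, cytokine and study-named channel lists, and leaving out single replicates gave -0.108 to 0.0037 for glucocorticoid and -0.0875 to 0.0199 for cell cycle genes. In all, 323 of 360 main values and 1548 of 1567 values of single genes and other lists stayed within the spread between replicates or 1.5 times the count. The list of channels that the study named had no value at a mean of at least 5 FPKM. Same-numbered day 1 and sham samples correlated at 0.119, 0.00975 and -0.00525 in their deviations, so the numbers did not pair them. Day 1 replicate 1 correlated best with its own number, and replicates 3 and 4 with Sham 4 and Sham 2. With the replicate block, 389 genes were higher and 304 lower at an unadjusted p under 0.05, the smallest adjusted p was 0.502, and the medians were 0.353 for the type I interferon list and -0.0625 for heat shock genes.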
